A study of Homo sapiens with 6 samples.

Results

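The primary cilium is a single sensory projection of the cell surface, built on a centriole and enclosed by its own membrane. The 46 genes described here encode the machinery that builds it and controls what enters. They were taken from the deposited table of 17945 genes by matching its Entrez gene IDs to a list of symbols, and all 46 were found. They fall into 20 genes of intraflagellar transport, 12 genes of the BBSome and its helpers, and 14 genes of the transition zone. The members were listed with earlier results of these data known, so their counts are not independent evidence of a direction. Beyond their names, members were selected on measured FPKM, with a floor for testing of 1 FPKM (fragments per kilobase of transcript, scaled to library size) in at least 3 of 6 libraries. All 46 genes were at or above the floor in all 6 libraries, and the nearest value to it was 1.69 FPKM, of ARL6 in DMSO replicate 1. No member lay below the floor.

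Total RNA was sequenced from ARPE-19, an established human retinal pigment epithelial cell line of wild-type genotype per the labels. Cells were given 320 nM cinobufagin, a toad steroid that blocks the sodium pump, or DMSO, its solvent control, for 24 h. Each group held 3 libraries, and no label says that these were independent cultures. The p-values therefore speak of the scatter among these libraries alone, and that scatter may be technical. The medium contained serum, whose withdrawal is the usual way to induce cilia in culture, and cilia themselves were not measured in the data used here.

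In intraflagellar transport, trains of the IFT-A and IFT-B complexes ride along the ciliary microtubules. Kinesin-2 carries them outward to the tip and dynein-2 carries them back. The BBSome is an adaptor that links membrane receptors to these trains and removes them from the cilium. The transition zone is a gate of membrane and coiled-coil proteins at the ciliary base. Loss of these genes causes ciliopathies, in which the retina is often affected, since the photoreceptor outer segment is a modified cilium and the retinal pigment epithelium bears a primary cilium during its maturation.

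Summed FPKM was 538039 to 560721 in the DMSO libraries and 534694 to 545499 in the cinobufagin libraries, and the depth is unknown because the table holds no read totals. Pearson's r across 11599 tested genes, which do not serve as independent replicates, was 0.996 to 0.9975 between libraries of a group and 0.9619 to 0.9635 across groups. Of the markers of the labelled tissue, OTX2 stood at 48.5 ± 0.322 FPKM in controls and KRT18 at 324 ± 13.7 (SD, n = 3 each), whereas RPE65 stood at 0.01 ± 0.0173 and TTR was listed at 0 in every library. Of 12 such markers present, 8 were tested, of which 2 rose, 4 fell and 2 missed the threshold. Of all genes tested, 39.2% were higher and 28.4% lower. OTX2 rose to 74.5 ± 2.82 FPKM and MITF rose from 45.1 ± 2.22 to 56.3 ± 1.26, while KRT8, KRT18, PMEL and SERPINF1 fell. The 12 markers summed to 866 to 934 FPKM in DMSO and 693 to 698 with cinobufagin. KRT8 and KRT18 made up most of that sum, at 454 ± 26.6 and 324 ± 13.7 FPKM in DMSO and 316 ± 3.36 and 232 ± 7.44 with cinobufagin. The part of these markers in the results for the ciliary genes was not tested. Fibroblast markers summed to 14.6 to 15.2 FPKM in DMSO and 13.9 to 14.9 with cinobufagin, and photoreceptor markers to 2.24 to 2.66 and 1.77 to 1.88. Each of these sums was mostly 1 gene, PDGFRB at 13.7 ± 0.335 and 13.9 ± 0.54 FPKM and PDE6B at 2.16 ± 0.14 and 1.63 ± 0.07. No other fibroblast or photoreceptor marker was tested. Of 14 motile cilia markers measured, 2 were tested. HYDIN, which has a near-identical copy, was at 3.5, 4.06 and 3.92 FPKM in DMSO and 3.08, 2.7 and 1.77 with cinobufagin. It fell by 0.47 on the log2 scale. Its mean stood above that of the low member ARL6 in DMSO (3.83 against 2.00 FPKM) but below it with cinobufagin (2.52 against 3.10). CCDC40 was at 1.44 ± 0.196 and 1.63 ± 0.194 FPKM and missed the threshold. Of the 14 markers, 3 were listed at 0 in all libraries, the driver FOXJ1 was listed at 0 in all DMSO libraries, and their summed level was 7.45 to 8.95 FPKM in DMSO and 5.81 to 7.06 with cinobufagin. Their part in the results for the members was not tested.

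RFX factors, some of which switch on many ciliary genes, bind the X-box, a pair of inverted arms. The sequences of the members that hold such letters are shown because they are a feature that the selection did not use. The 250 bases before the RefSeq start (build GRCh38.p14) were searched for GTNNCC followed by 0 to 3 bases and GGNNAC, which reads the same on both strands. The table held promoters for 42 of the 46 genes. The X-box letters were found in 6 of 42 members (14.3%) and in 332 of 9643 tested genes with a promoter (3.44%). In the lines that follow, 30 bases are given 5′ to 3′ on the gene's strand, with the match in capitals. The windows lie at chr4:39182458-39182487 (plus strand) for WDR19, chr3:108222433-108222462 (minus) for IFT57, chr3:97764726-97764755 (plus) for ARL6, chr16:75556271-75556300 (minus) for TMEM231, chr10:95694121-95694150 (minus) for TCTN3 and chr17:19378085-19378114 (minus) for B9D1.
WDR19: ctcgcgcgGTCTCCTGGGTGACgggaacgc
IFT57: ggagtctaGTTTCCCTGGTGACggattgtc
ARL6: aagctcctGTTGCCAAGGGAACggtgcctg
TMEM231: agccgtcgGTTGCCGTGGAGACcgaggcga
TCTN3: cactgacgGTTGCCAGGCAACggaggcacg
B9D1: ctgggactGTTACCTTGGCTACtggctccc

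The match of ARL6 ended 10 bases before the start, that of IFT57 16 bases, that of TMEM231 26 bases and that of WDR19 49 bases before it, while those of B9D1 and TCTN3 ended 179 and 202 bases before it. The arm GTTGCC alone, on either strand and overlapping the X-box search, was present in 15 of 42 members (35.7%) and in 10.6% of the tested genes with a promoter. Of all genes tested, 39.2% were called higher and 28.4% lower (limma, adjusted p under 0.05), and these shares stand beside the counts that follow. Of the 6 members with the X-box letters, 4 were called higher with cinobufagin and 2 did not pass, with a median log2 fold change of 0.27. Of the 24 members with neither, 17 were called higher, 3 were called lower and 4 did not pass, with a median of 0.30. Of the 12 with the arm and no X-box, 6 were called higher, 1 was called lower and 5 did not pass, with a median of 0.14. A match describes the letters and does not show that a factor binds. The arm is shown for 5 of the 7 members that changed and hold it without the whole X-box, IFT46 (chr11:118566110-118566139, minus strand), IFT27 (chr22:36776143-36776172, minus), IFT74 (chr9:26946861-26946890, plus), BBS5 (chr2:169479464-169479493, plus) and DYNC2H1 (chr11:103109363-103109392, plus).
IFT46: tttatcagccgcGTTGCCacccatagccgc
IFT27: ggagcttttggcGGCAACcaatcgagggtc
IFT74: caacacagccggGGCAACccgactcccagc
BBS5: gtgacagaggcggcccGTTGCCttggagcc
DYNC2H1: gtgccccgagagGGCAACgcccaccgcgcg

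BBS12 and BBS1 had the largest changes among the 46 genes, and neither held the X-box or the arm GTTGCC. Their upstream stretches outside annotated exons of GENCODE 29 are printed for that reason, at chr4:122732483-122732701 (plus strand, 219 bases) and chr11:66510385-66510605 (plus strand, 221 bases). Capitals mark matches, on either strand, to the ETS core CCGGAAG, the NRF1 letters GCGCATGC, the Sp1 letters GGGCGG, the E-box CACGTG and the CRE letters TGACGT. Matches not wholly inside a printed stretch are not marked, and BBS1 has such an Sp1 match. Of the 42 member promoters, 9 held the ETS core, 0 the NRF1 letters, 25 the Sp1 letters, 3 the E-box and 8 the CRE letters. Of the 9643 promoters of tested genes, 17.0% held the ETS core, 5.10% the NRF1 letters, 68.8% the Sp1 letters, 9.15% the E-box and 10.7% the CRE letters.
BBS12: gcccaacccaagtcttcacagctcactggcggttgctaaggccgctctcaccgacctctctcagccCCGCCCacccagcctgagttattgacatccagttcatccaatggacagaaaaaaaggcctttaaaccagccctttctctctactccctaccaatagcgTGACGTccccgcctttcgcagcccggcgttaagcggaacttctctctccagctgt
BBS1: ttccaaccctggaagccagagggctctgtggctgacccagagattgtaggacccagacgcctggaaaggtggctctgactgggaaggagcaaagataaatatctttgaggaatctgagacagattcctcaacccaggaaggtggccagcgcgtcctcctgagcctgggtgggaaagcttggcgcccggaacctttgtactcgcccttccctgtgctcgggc

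Transport and BBSome genes were mostly higher with cinobufagin, and transition zone genes changed little. Across the 46 genes, 28 rose, 5 fell and 13 did not pass (limma, Benjamini-Hochberg adjusted p under 0.05 over all 11599 genes tested, SE given after ± where so marked). Of all genes tested 67.7% passed, against which the members are set, with 39.2% higher and 28.4% lower. Among the members 60.9% were higher and 10.9% were lower. The median log2 fold change of FPKM + 1 was 0.24 over the members and 0.062 over all genes tested. For genes with low values this scale gives too small a change. The changes were small: 7 members (15.2%) changed by at least 0.5 on the log2 scale, against 21.5% of the genes tested, and 0 members changed by at least 1. With a pseudocount of 0.1 in place of 1, BBS12 changed by 1.06. The 3 cinobufagin values lay wholly above the DMSO values in 29 members and wholly below in 5, where 41.2% of all genes tested lay above and 29.6% below. In bulk RNA, a change in the share of cells that express a gene and a change in RNA per cell cannot be told apart.

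**Figure D1:**
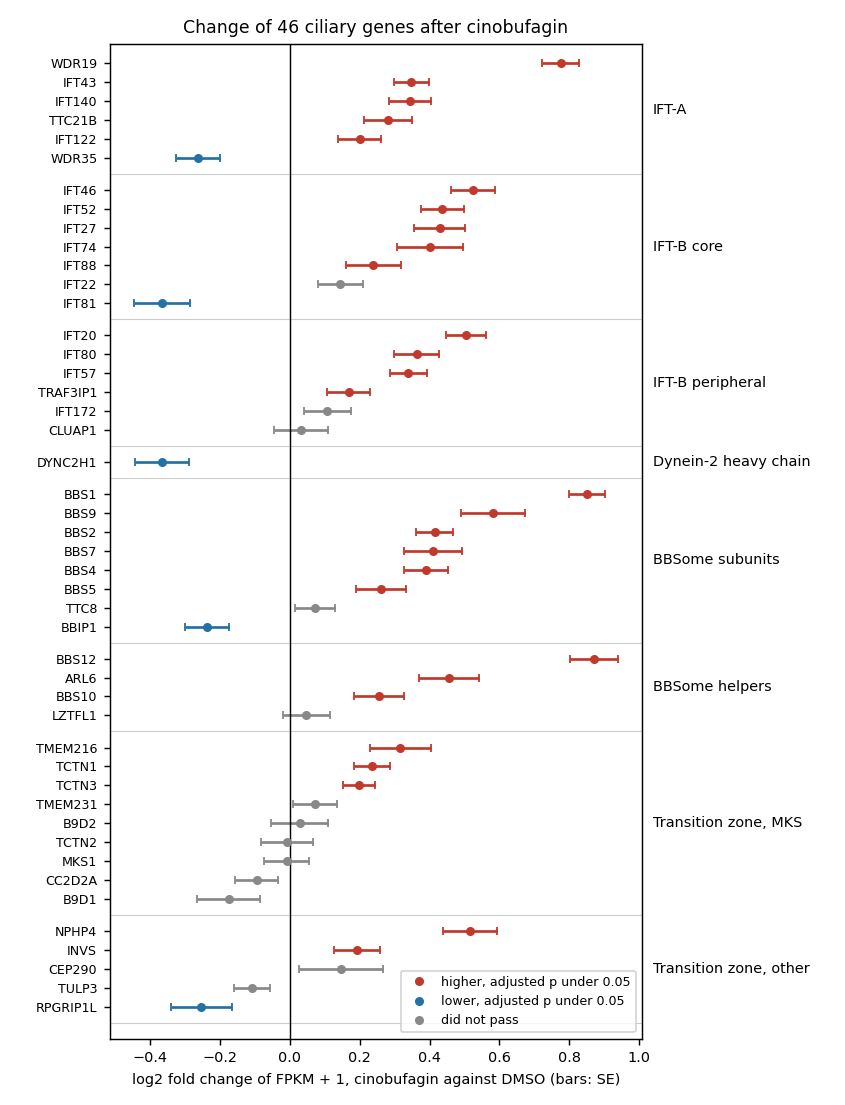
Log2 fold change of FPKM + 1 (cinobufagin against DMSO, x axis) for each of the 46 genes, ordered within complexes, with bars for the SE of the limma fit and colour for the call. The highest point is BBS12 at 0.87, and the lowest are IFT81 and DYNC2H1 at -0.37.

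The 3 groups differed in their counts. In intraflagellar transport, 14 of 20 genes rose, 3 fell and 3 did not pass, with a median log2 fold change of 0.31. In the BBSome group, 9 of 12 rose, 1 fell and 2 did not pass, with a median of 0.40. In the transition zone, 5 of 14 rose (35.7%), 1 fell and 8 did not pass, with a median of 0.050, so its share of risen genes was near the 39.2% of all genes tested. Summed FPKM of the transport genes was 226, 239 and 235 in the DMSO libraries and 297, 290 and 284 in the cinobufagin libraries. For the BBSome group the sums were 114, 122 and 121 against 157, 157 and 155. The transition zone sums were 182, 188 and 187 against 189, 204 and 199.8. The groups of libraries did not overlap in any of these sums, but the step was 1.24-fold for transport, 1.31-fold for the BBSome and 1.06-fold for the transition zone. In the transition zone the nearest sums were 188.21 in DMSO and 188.81 with cinobufagin, and the mean sum went from 186 to 198 FPKM. Its most abundant genes, TCTN3 and TCTN1, went from 41.8 to 48.1 and from 36.0 to 42.6. B9D1, the next, went from 28.4 to 25.2 and did not pass. No test was made of the difference between the groups of genes.

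**Figure D2:**
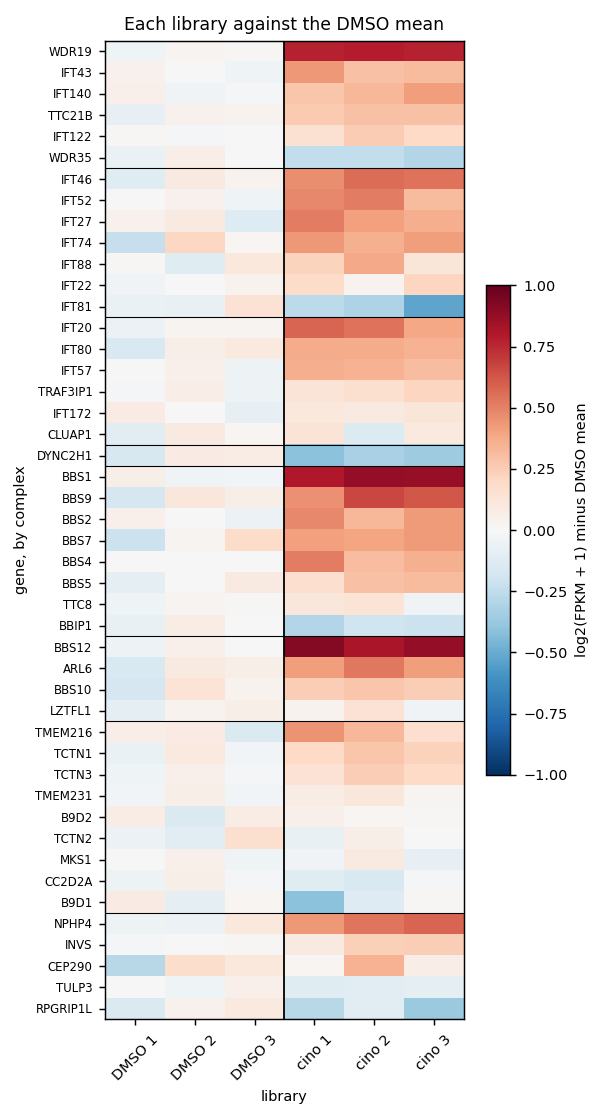
Log2(FPKM + 1) of each gene (y axis, by complex, lines between complexes) in each of the 6 libraries (x axis), minus the mean of the 3 DMSO libraries, on a colour scale from -1 to 1. WDR19, BBS1 and BBS12 are the darkest rows in all 3 cinobufagin libraries, and most transition zone rows are pale.

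IFT-A, the complex that carries receptors into the cilium and serves return transport, has 6 subunit genes here. Of these 5 rose and WDR35 fell. WDR19 (IFT144, gene ID 57728, chromosome 4, 39182404 to 39285810 on GRCh38) was at 8.54, 9.02 and 8.93 FPKM in DMSO and at 15.79, 15.9 and 15.77 with cinobufagin. The groups were far apart and the cinobufagin values nearly equal. The log2 change was 0.78 (± 0.05 SE, adjusted p = 1.56e-07 by limma). WDR35 (IFT121, gene ID 57539, chromosome 2, 19910260 to 19990131), a subunit gene mutated in cranioectodermal dysplasia, was at 7.31, 8.08 and 7.67 FPKM in DMSO and at 6.3, 6.33 and 6.07 with cinobufagin. Every treated value was below every control value, a fall of smaller size (log2 change -0.26 ± 0.06 SE, adjusted p = 0.0028 by limma).

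The level of WDR35 per length was 0.870 ± 0.0222 of that of WDR19 in DMSO and 0.394 ± 0.00789 with cinobufagin (SD, n = 3 each, pair chosen after its values were seen). IFT43, a small subunit, had the highest level of the complex, at 35.8 ± 1.16 FPKM in DMSO and 45.8 ± 2.51 with cinobufagin, and rose by 0.35 on the log2 scale. IFT43 overlaps TTLL5 and TGFB3, whose reads may be mixed with its own. The scaffold subunit IFT140 rose by 0.34, TTC21B (IFT139), a gene of kidney and skeletal ciliopathies, by 0.28 and IFT122 by 0.20 on the log2 scale. IFT122 did not pass without cinobufagin replicate 2 (adjusted p = 0.0579 by limma, where its alternatives spanned 0.00599 to 0.0579).

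IFT-B drives outward transport and has a core and a peripheral part. Of 7 core genes, 5 rose, 1 fell and 1 did not pass. IFT46 (gene ID 56912), a core subunit that in the alga Chlamydomonas is needed for outer dynein arm import, was at 13.28, 15.59 and 14.94 FPKM in DMSO and 20.55, 21.93 and 21.72 with cinobufagin. All treated libraries were well above all controls, with a log2 fold change of 0.52 (± 0.06 SE, adjusted p = 1.58e-05 by limma). IFT52, a central core subunit, was at 15.04, 15.43 and 14.47 FPKM in DMSO and 21.29, 21.78 and 18.91 with cinobufagin. The third treated library was the lowest of its group and still above every control (log2 change 0.44 ± 0.06 SE, adjusted p = 5.26e-05 by limma). The small GTPase IFT27, which also works with the BBSome in ciliary exit, was at 6.9, 7.13 and 5.99 FPKM in DMSO and 9.93, 9.16 and 8.87 with cinobufagin, without overlap. It rose by 0.43 on the log2 scale (± 0.07 SE, adjusted p = 0.000274 by limma).

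IFT74 and IFT81, which bind each other and tubulin, went opposite ways. IFT74 (gene ID 80173, chromosome 9, 26947039 to 27062930) was at 5.63, 7.95 and 6.89 FPKM in DMSO and 9.47, 8.96 and 9.35 with cinobufagin. IFT81 (gene ID 28981, chromosome 12, 110124335 to 110218797) was at 13.83, 13.78 and 16.14 FPKM in DMSO and 11.98, 11.52 and 9.81 with cinobufagin. Neither pair of groups overlapped, although the DMSO values of IFT74 were spread widely. IFT74 rose by 0.40 (± 0.09 SE, adjusted p = 0.0025 by limma) and IFT81 fell by 0.37 on the log2 scale (± 0.08 SE, adjusted p = 0.00172 by limma). The level of IFT81 per length was 2.46, 1.73 and 2.34 times that of IFT74 in the DMSO libraries and 1.26, 1.29 and 1.05 times in the cinobufagin libraries, a pair chosen after its values were seen. IFT88, a core subunit whose mutation gives mice polycystic kidneys, rose by 0.24 (± 0.08 SE, adjusted p = 0.0191 by limma). It missed the threshold without DMSO replicate 2 (0.0771), without cinobufagin replicate 2 (0.091) and without the filter on low values (0.0553), in a range of 0.0114 to 0.091. The GTPase IFT22 was at 8.32 ± 0.225 and 9.31 ± 0.677 FPKM and missed the threshold (adjusted p = 0.0673 by limma), though it passed without cinobufagin replicate 2 (0.024) and with the length and GC trend removed (0.0391).

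Of 6 peripheral IFT-B genes, 4 rose and 2 did not pass. IFT20, a subunit that also sits at the Golgi and helps send membrane proteins to the cilium, was at 22.9, 24.29 and 24.39 FPKM in DMSO and 36.2, 35.25 and 31.53 with cinobufagin. The gap between the groups was larger than the spread in either (log2 change 0.51 ± 0.06 SE, adjusted p = 1.05e-05 by limma). IFT80 rose by 0.36, its partner IFT57 by 0.34 and TRAF3IP1 (IFT54), a microtubule-binding subunit, by 0.17 on the log2 scale. The IFT80 gene overlaps SMC4, a condensin gene on the opposite strand, and a coding gene without a common name on the same strand. TRAF3IP1 missed the threshold without either of DMSO replicates 1 and 3 or either of cinobufagin replicates 2 and 3, and in 3 other alternatives (limma-adjusted p from 0.02 to 0.106 over all of them). IFT172, whose protein turns trains around at the tip, was at 5.51 ± 0.375 and 6.01 ± 0.0764 FPKM, and CLUAP1 (IFT38) at 13.5 ± 0.993 and 13.8 ± 1.46 (adjusted p = 0.175 and 0.73 by limma).

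DYNC2H1 (gene ID 79659, chromosome 11, 103109410 to 103479863), the heavy chain and motor of dynein-2, was at 6.12, 7.39 and 7.37 FPKM in DMSO and at 4.96, 5.34 and 5.19 with cinobufagin. The groups did not overlap, and the fall was 0.37 on the log2 scale (log2 change -0.37 ± 0.08 SE, adjusted p = 0.00127 by limma). Other dynein-2 subunits, named here after their values were seen, did not move together. The light intermediate chain DYNC2LI1 rose by 0.29 and the intermediate chain DYNC2I1 (WDR60) by 0.26. The other intermediate chain, DYNC2I2 (WDR34), was at 41.92, 35.76 and 38.47 FPKM in DMSO and 22.51, 26.01 and 24.06 with cinobufagin (log2 change -0.66 ± 0.07 SE, adjusted p = 3.9e-06 by limma). The light chain DYNLT2B had a log2 fold change of -0.47 (± 0.08 SE, adjusted p = 0.000313 by limma). Per length, DYNC2I2 was at 4.40 ± 0.401 times the level of DYNC2I1 in DMSO and 2.24 ± 0.0725 times with cinobufagin.

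The KIF3A, KIF3B and KIFAP3 genes of the outward motor rose. KIF17, a further motor gene, lay under the floor and was not tested. It was at 0.323 ± 0.0802 FPKM in DMSO and lower, at 0.0267 ± 0.00577, with cinobufagin. KIF3B, a motor subunit of kinesin-2, was at 19.02, 20.21 and 18.46 FPKM in DMSO and 33.39, 31.52 and 32.97 with cinobufagin (log2 change 0.73 ± 0.05 SE, adjusted p = 1.69e-07 by limma). Its partner KIF3A was at 5.31, 6.38 and 7.41 FPKM against 9.75, 10.61 and 10.96 (log2 change 0.64 ± 0.09 SE, adjusted p = 8.3e-05 by limma), and neither gene's groups overlapped. KIFAP3, the adaptor of the same motor, rose by 0.21, while KIF3C, an alternative partner, was at 13.2 ± 0.437 and 12.8 ± 0.252 FPKM and missed the threshold (adjusted p = 0.515 by limma). In all, 8 of the 12 further IFT and motor genes tested rose, 2 fell and 2 missed the threshold, with a median log2 fold change of 0.28. Over all genes tested, 39.2% were higher and 28.4% lower. Of the IFT genes in the list of 12, IFT56 rose by 0.44 and the near-identical copies IFT70A and IFT70B, whose reads are hard to separate, by 0.50 and 0.41. IFT25, the other IFT gene of the list, was at 45.8 ± 2.24 and 45.6 ± 5.16 FPKM and missed the threshold (adjusted p = 0.903 by limma).

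**Figure D3:**
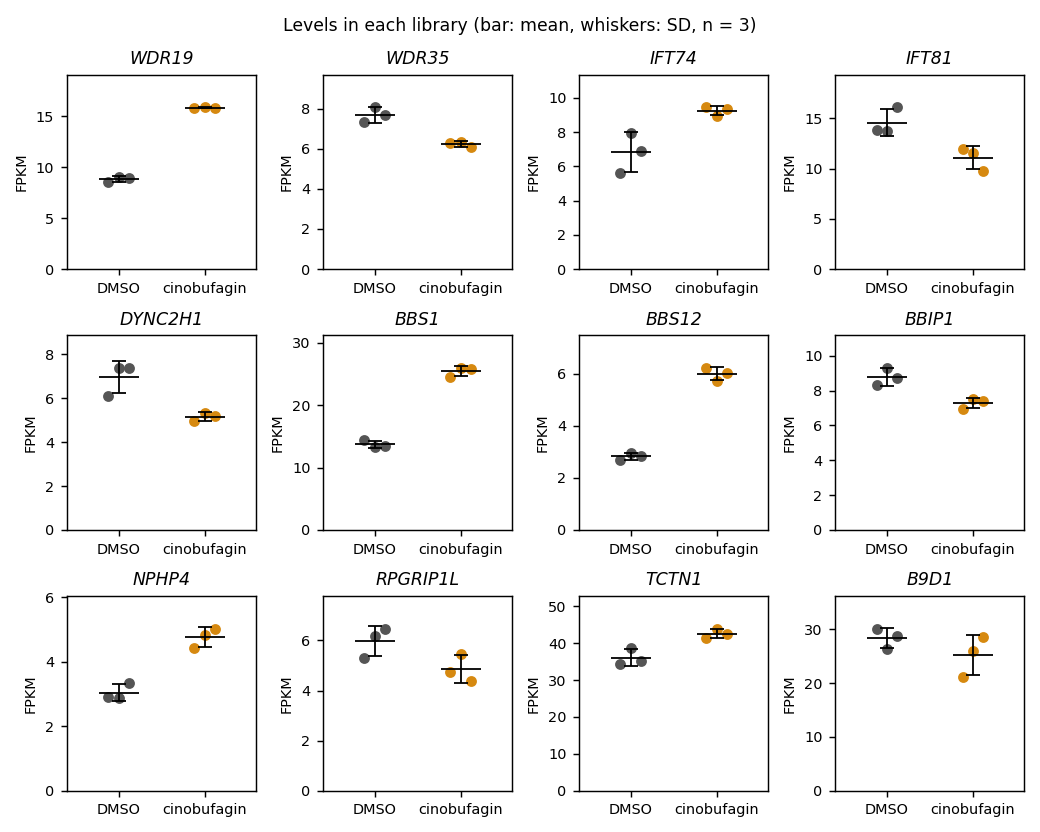
FPKM in each library (y axis from 0, points) for 12 members in DMSO and cinobufagin (x axis), with the mean and SD of 3 libraries. The groups overlap in RPGRIP1L and B9D1 and are apart in the other panels, with WDR35, IFT81, DYNC2H1 and BBIP1 lower with cinobufagin.

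Of the 8 BBSome subunit genes, 6 rose, 1 fell and 1 did not pass. BBS1 (gene ID 582, chromosome 11, 66510606 to 66533627), the subunit that contacts the membrane GTPase ARL6, was at 14.34, 13.34 and 13.41 FPKM in DMSO and at 24.58, 25.99 and 25.87 with cinobufagin. Its mean was 1.86-fold higher, far beyond the spread within groups (log2 change 0.85 ± 0.05 SE, adjusted p = 6.11e-08 by limma). The BBS1 gene overlaps ZDHHC24 on the opposite strand and a coding gene without a common name on the same strand, whose reads a stranded count would not separate. No source used here gives the strand setting of the counting. BBS9, which forms the scaffold of the complex, was at 2.63, 3.42 and 3.24 FPKM in DMSO and 4.59, 5.48 and 5.29 with cinobufagin. These low values did not overlap (log2 change 0.58 ± 0.09 SE, adjusted p = 0.000142 by limma).

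BBS2 and BBS7, a pair at the top of the complex, rose by similar amounts. BBS2 was at 21.23, 20.57 and 19.61 FPKM in DMSO and 28.96, 26.07 and 27.83 with cinobufagin (log2 change 0.41 ± 0.05 SE, adjusted p = 3.16e-05 by limma). BBS7 was at 10.95, 13.14 and 14.69 FPKM against 17.41, 17.15 and 17.55 (log2 change 0.41 ± 0.08 SE, adjusted p = 0.000986 by limma). The controls of BBS7 were spread and its treated libraries were nearly equal. BBS4, which binds the satellite protein PCM1, rose by 0.39 and BBS5, a lipid-binding subunit, by 0.26 on the log2 scale. TTC8 (BBS8) was at 15.3 ± 0.438 and 16.2 ± 1.08 FPKM and missed the threshold (adjusted p = 0.294 by limma).

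BBIP1 (BBS18, gene ID 92482, chromosome 10, 110898730 to 110919274), the smallest subunit and a link between BBS4 and TTC8, was the member of the complex that fell. It was at 8.3, 9.31 and 8.72 FPKM in DMSO and 6.97, 7.5 and 7.41 with cinobufagin (log2 change -0.24 ± 0.06 SE, adjusted p = 0.0061 by limma). All treated values were below all controls. Its level per length was 0.904 ± 0.0488 of that of BBS4 in DMSO and 0.562 ± 0.0638 with cinobufagin (SD, n = 3 each, pair chosen after its values were seen). BBIP1 overlaps PDCD4 on the opposite strand.

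The genes that assemble and recruit the BBSome include the member with the largest change. BBS12 (gene ID 166379, chromosome 4, 122732702 to 122744943), a chaperonin-like protein of BBSome assembly, was at 2.69, 2.95 and 2.83 FPKM in DMSO and 6.22, 5.72 and 6.03 with cinobufagin. Its mean was 2.12-fold higher, with no overlap (log2 change 0.87 ± 0.07 SE, adjusted p = 5.55e-07 by limma), a size above that of 93.6% of the genes tested. BBS10, another chaperonin-like protein, rose by 0.25 (± 0.07 SE, adjusted p = 0.00808 by limma). The chaperonin-like partner of both, MKKS, which is no member, was at 39.0 ± 4.55 and 39.3 ± 2.09 FPKM and missed the threshold (adjusted p = 0.855 by limma). ARL6 (BBS3), the GTPase that brings the BBSome to membranes, was at 1.69, 2.18 and 2.12 FPKM in DMSO and 3, 3.3 and 3 with cinobufagin (log2 change 0.46 ± 0.09 SE, adjusted p = 0.000591 by limma). It had the lowest DMSO level of the 46 genes. LZTFL1 (BBS17), which restrains BBSome entry into the cilium, was at 10.6 ± 0.637 and 11.0 ± 0.742 FPKM and missed the threshold (adjusted p = 0.541 by limma).

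The transition zone genes were mostly within the spread between libraries. Of the 9 genes of the MKS module, which spans the membrane at the ciliary base, 3 rose, 0 fell and 6 did not pass. TCTN3, a tectonic protein, had the highest level of the 46 genes. It was at 40.57, 43.36 and 41.43 FPKM in DMSO and 46.35, 49.64 and 48.19 with cinobufagin (log2 change 0.20 ± 0.05 SE, adjusted p = 0.00227 by limma). Its relative TCTN1 was at 34.27, 38.6 and 35.23 FPKM against 41.46, 43.9 and 42.37 (log2 change 0.24 ± 0.05 SE, adjusted p = 0.00161 by limma). Both had groups that did not overlap. TCTN2, the third tectonic gene, was at 12.6 ± 1.38 and 12.5 ± 0.63 FPKM (adjusted p = 0.929 by limma).

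TMEM216, a tetraspan membrane protein of Joubert and Meckel syndromes, was at 6.03, 6.12 and 5.07 FPKM in DMSO and 8.17, 7.48 and 6.54 with cinobufagin. The lowest treated value was just above the highest control (log2 change 0.32 ± 0.09 SE, adjusted p = 0.00722 by limma). The membrane protein gene TMEM231 was at 6.03 ± 0.243 and 6.39 ± 0.225 FPKM. MKS1 was at 8.54 ± 0.311 and 8.49 ± 0.598 FPKM, and its B9-domain relatives were at 28.4 ± 1.87 and 25.2 ± 3.8 FPKM for B9D1 and at 2.76 ± 0.32 and 2.82 ± 0.0513 for B9D2. The coiled-coil and C2-domain gene CC2D2A was at 10.1 ± 0.438 and 9.43 ± 0.522 FPKM. None of these 5 genes passed (limma-adjusted p from 0.105 for B9D1 to 0.905 for MKS1). B9D1 had the widest spread in its treated libraries, at 21.15, 25.91 and 28.65 FPKM, and passed as lower without cinobufagin replicate 3 (0.0191) and with each library centred on its median (0.0469). CC2D2A passed as lower with the length and GC trend removed (0.0212).

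Outside that module, NPHP4 (gene ID 261734, chromosome 1, 5862811 to 5992473), a nephronophthisis gene, had the largest change of the transition zone. It was at 2.9, 2.87 and 3.34 FPKM in DMSO and 4.43, 4.84 and 5.03 with cinobufagin, without overlap (log2 change 0.52 ± 0.08 SE, adjusted p = 0.000102 by limma). It overlaps KCNAB2 on the opposite strand. RPGRIP1L, a scaffold protein of the gate that binds NPHP4, was at 5.31, 6.16 and 6.47 FPKM in DMSO and 4.73, 5.46 and 4.38 with cinobufagin. It fell by 0.25 (log2 change -0.25 ± 0.09 SE, adjusted p = 0.0226 by limma), but its groups overlapped. It missed the threshold without DMSO replicate 2 or 3, without cinobufagin replicate 1 or 3 and without the filter on low values, in a range of 0.00207 to 0.0997.

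INVS, which marks the compartment just beyond the gate, was at 5.88, 5.95 and 6.02 FPKM in DMSO and 6.41, 7.18 and 7.26 with cinobufagin (log2 change 0.19 ± 0.07 SE, adjusted p = 0.0218 by limma). The groups were apart, yet the gene missed the threshold without cinobufagin replicate 2 (0.0762) or 3 (0.0862) and with each library centred on its median (0.0528), in a range of 0.011 to 0.0862. CEP290, which links microtubules to the membrane at the gate, was at 4.8 ± 0.938 and 5.39 ± 0.794 FPKM (adjusted p = 0.297 by limma). TULP3, the adaptor that hands receptors to IFT-A, was at 13.71, 13.39 and 14.28 FPKM in DMSO and at 12.57, 12.78 and 12.81 with cinobufagin. Its treated values lay below its controls, but it did not pass (log2 change -0.11 ± 0.05 SE, adjusted p = 0.0837 by limma). It passed as lower after quantile normalization (0.016), with each library centred on its median (0.021) and with the length and GC trend removed (0.0121), and it overlaps RHNO1 on the same strand. The next counts stand beside the 39.2% of all genes tested that were higher and the 28.4% that were lower. Among 13 further genes of the gate and the inversin compartment, a list that includes MKKS, 4 rose, 3 fell and 6 missed the threshold, with a median log2 fold change of -0.0061. Of the 4, NEK8 was at 0.86, 0.92 and 0.89 FPKM in DMSO and 1, 1.37 and 1.27 with cinobufagin. It reached the floor in the treated libraries alone, so its call is no support for a rise. TMEM237, a membrane protein of the gate, went from 9.89 ± 0.424 to 4.91 ± 0.148 FPKM (log2 change -0.88 ± 0.06 SE, adjusted p = 2.12e-07 by limma). IQCB1 (NPHP5), a partner of CEP290, fell by 0.52, while TMEM107 rose by 0.52 on the log2 scale.

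Among genes that act with the cilium some rose and some fell, and the counts are to be read against the 39.2% of all genes tested that were higher and the 28.4% that were lower. Of 11 ciliary GTPases and lipid-cargo carriers tested, 2 rose, 3 fell and 6 missed the threshold, with a median log2 fold change of -0.036. PDE6D, a carrier of prenylated cargo, rose by 0.72, while the small GTPase RAB23 fell by 0.71 on the log2 scale. In the Hedgehog pathway, which signals through the primary cilium in vertebrates, 5 of 9 genes tested rose, 3 fell and 1 missed the threshold, with a median of 0.31. The inhibitor SUFU went from 4.16 ± 0.257 to 7.91 ± 0.155 FPKM (log2 change 0.79 ± 0.07 SE, adjusted p = 8.44e-07 by limma). The ciliary kinesin KIF7 rose by 0.53 and the transducer SMO by 0.50. Of the pathway's target genes, PTCH1 was at 0.63, 0.85 and 0.68 FPKM in DMSO and 1.23, 1.04 and 1.11 with cinobufagin. PTCH1 reached the floor for testing in the treated libraries alone, so its call as higher is no support for a rise. It is counted among the 5, and the median of 0.31 is its own log2 fold change. GLI1 was at 0.317 ± 0.0709 and 0.143 ± 0.00577 FPKM, under that floor. Of 15 centriole and distal appendage genes, 3 rose, 4 fell and 8 missed the threshold, with a median of 0.015. The appendage genes CEP83 and SCLT1 fell by 0.49 and fell by 0.40, and the kinase TTBK2, which starts ciliogenesis, rose by 0.40 on the log2 scale.

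**Figure D4:**
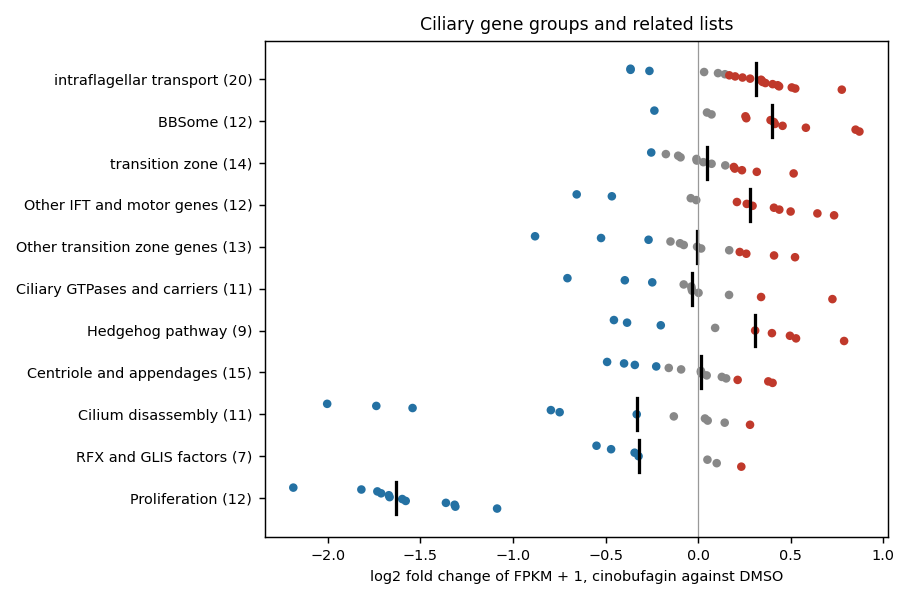
Log2 fold change of FPKM + 1 (x axis) of each tested gene in the 3 groups of members and in 8 related lists (y axis, number of genes in brackets), with a black bar at each median and colours as in the plot of changes by gene. Medians of the transport and BBSome groups are at 0.31 and 0.40, and the proliferation list is at -1.63.

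Cycling cells take their cilia apart before mitosis. All 12 proliferation genes fell, with a median log2 fold change of -1.63, and their summed level was 323 to 346 FPKM in DMSO and 101 to 106 with cinobufagin. CDC20 fell by 2.19, CENPF fell by 1.82 and BIRC5 fell by 1.73 on the log2 scale. Of 11 genes listed for cilium disassembly, 1 rose, 6 fell and 4 missed the threshold, with a median of -0.33, where 28.4% of all genes tested were lower. Of the 6, KIF24 was at 1.77, 1.83 and 2.03 FPKM in DMSO and 0.6, 0.68 and 0.69 with cinobufagin. It reached the floor in the DMSO libraries alone, so its call is no support for a fall. The mitotic kinases PLK1, AURKA and NEK2, which also promote disassembly, fell by 2.00, fell by 1.74 and fell by 1.54. The deacetylase HDAC6, which acts on ciliary tubulin, was at 9.91 ± 0.301 and 10.3 ± 0.556 FPKM and missed the threshold (adjusted p = 0.463 by limma). The gene that rose was BBOF1, by 0.28, named after its value was seen, and it is known for basal body alignment in motile cilia, not for disassembly. The part of the change in proliferation in the levels of the ciliary genes was not tested.

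Transcripts of the RFX and GLIS factors did not all move the same way with cinobufagin. Of 7 tested, 1 rose, 4 fell and 2 missed the threshold, with a median log2 fold change of -0.32. Of all genes tested, 39.2% were higher and 28.4% lower. RFX5 fell by 0.55, GLIS3 fell by 0.47 and RFX2 fell by 0.34 on the log2 scale. RFX3, a main regulator of ciliary genes, was at 2.31 ± 0.329 and 2.55 ± 0.287 FPKM and missed the threshold (adjusted p = 0.371 by limma), and RFX1 was the gene that rose, by 0.23. Both were named after their values were seen.

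Levels differed more between the members than between the treatments. In DMSO they ran from 2.00 FPKM for ARL6 to 41.8 for TCTN3, a 20.9-fold range, and with cinobufagin from 2.82 for B9D2 to 48.1 for TCTN3, a 17.0-fold range. Within the IFT-B core the range was 2.24-fold in DMSO and 2.31-fold with cinobufagin, and within the BBSome it was 6.61-fold and 5.39-fold. Of the 46 genes, 23 overlap another coding gene in GENCODE 29, and 6 of these (IFT43, IFT80, BBS1, BBS5, TMEM231 and TULP3) overlap one on the same strand. WDR19, BBS12, BBS7, BBS9, ARL6, WDR35, IFT81 and DYNC2H1 do not.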

How the data were processed

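The deposited values are FPKM per gene, made by the authors, per the file headers, for 3 DMSO and 3 cinobufagin libraries. Without stating roles, the notes of the submitters on processing list build GRCh38.p13, DESeq2 1.4.5, RSEM 1.3.1 and Bowtie2 (submitters' processing notes). FPKM is relative to the library total, so a few abundant genes can shift all others. Control columns are named mock and were taken as the DMSO libraries of the same number. Of the entries, 19 held displaced text and were left out. Ratios of low values did not gather at whole numbers (1011 within 0.1 of a whole number, 1174 within 0.1 of the midpoint, 1429 genes). This cannot tell whether whole-read steps were present, because the values are rounded and the depths unknown. FPKM is not a count, so no count model was used.

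Symbols came from RefSeq (GRCh38.p14), promoters from the same build, and positions and overlaps from GENCODE 29 on GRCh38. Log2(FPKM + 1) of the 11599 genes at 1 FPKM or more in at least 3 libraries was fitted with limma 3.58.1 (R 4.3.3, mean-variance trend, no block), as cinobufagin minus DMSO, with Benjamini-Hochberg adjustment over all genes and a threshold of 0.05. SE is moderated, and SD is over 3 libraries.

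The members, lists and motifs were chosen with earlier results of these data known. By the naming rule, values per library are given for up to 6 called members of each group with the largest change, for members against their group's direction and for the member nearest the floor, and up to 3 called genes of each further list are named. Any other gene of those lists was named after its values were seen. For 1 list, a gene that the rule would name is not reported here. Alternatives were a floor of 5 FPKM or none, a pseudocount of 0.1, no variance trend, centring on medians, quantile normalization, a replicate block, each library left out and, added after the data were seen, removal of a transcript length and GC trend.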

Additional observations from a re-analysis of the deposited data

How the results depend on the processing

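Over 14 alternatives, 28 of the 33 calls among the members held wherever a value was given (24 higher, 4 lower), and IFT122, IFT88, TRAF3IP1, INVS and RPGRIP1L lost theirs in at least 1. At a floor of 5 FPKM 4 members had no value. The median log2 change of transport genes was 0.27 after median centring, 0.34 with a pseudocount of 0.1, 0.26 without the length and GC trend and 0.27 to 0.31 with 1 library left out. That of the BBSome group was 0.35 after quantile normalization, 0.33 at the higher floor, where fewer genes were tested, and 0.34 to 0.42 with 1 library left out, lowest without DMSO replicate 1 in both groups. That of the transition zone was 0.0079 after median centring and 0.03 to 0.07 with 1 library left out. Its lower calls numbered 2 after quantile normalization, 3 after median centring, 3 without the length and GC trend and 0 without the filter or without DMSO replicate 2 or 3 or cinobufagin replicate 1. Genes that did not pass changed sign: CLUAP1 to -0.0201 after quantile normalization, -0.0102 after centring and -0.0306 without the length and GC trend, B9D2 to -0.0144 after centring and MKS1 to 0.00371 without that trend. With 1 library left out CLUAP1 ranged from -0.0216 to 0.116, TCTN2 from -0.0592 to 0.0738, MKS1 from -0.0596 to 0.0271 and B9D2 from -0.0453 to 0.065. The cause was not tested for these shifts.

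No pairing of the libraries by replicate number was visible: deviations of same-numbered libraries correlated at -0.049, -0.105 and -0.00906 across genes. Deviations from a mean of 3 libraries cannot tell whether the cultures were paired by design. No library correlated best with the library of its own number. With the replicate block 7690 genes were called in place of 7849, and 27 members were called higher and 5 lower. Read totals are unknown, so no counting error can be given for low members such as ARL6 and B9D2.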
